A study of Homo sapiens with 7 samples.

Results

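The cytochrome P450 (CYP) and UDP-glucuronosyltransferase (UGT) genes were taken from the array by name, as every non-control probe whose gene name begins with CYP and a digit or with UGT1, UGT2, UGT3 or UGT8. This gave 86 of the 42405 probes, 71 for CYP genes and 15 for UGT genes, and 68 of the 34809 gene names. CYP enzymes are haem proteins of the endoplasmic reticulum and mitochondria that insert oxygen into drugs, pollutants, steroids, sterols, vitamins and fatty acids. UGT enzymes of the UGT1 and UGT2 families then join glucuronic acid to such products, which makes them soluble for excretion in urine and bile. The liver is the main site of both, and the proximal tubule of the kidney, from which most renal cell carcinoma (RCC) is thought to arise, carries a smaller set of its own that includes UGT2B7 and the enzymes that activate vitamin D.

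ACHN, a human renal cell adenocarcinoma line, was studied after retroviral transduction and hygromycin selection with either the empty pBabe-hygro vector (EV, 4 arrays, EV 1 to EV 4) or the same vector carrying the long non-coding RNA HOTAIR (HOTAIR, 3 arrays, HOTAIR 1 to HOTAIR 3). Both groups therefore shared the virus, the selection and the cell line, and the labels name no drug or other inducer of these enzymes. Total RNA of each sample was labelled with Cy3 and hybridised to its own Agilent SurePrint G3 array. No source used here says whether the samples of a group were separate transductions or cultures, or whether the cells were a pool or a clone, so that the tests measure the spread between these samples, which may be technical.

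The 7 arrays shared 1 slide and 1 scan, and the EV arrays occupied a different row of it from the HOTAIR arrays, which means that row and treatment cannot be told apart. Levels are the log2 of the processed intensity minus the 75th percentile of the array. The intensity at that percentile ranged from 523 to 649, between 48.7% and 52.1% of the probes were called well above background by the scanner software (detected, below), and 0 spots were saturated. The HOTAIR probe was detected on every HOTAIR array (median -3.12) and on 0 EV arrays (median -6.70), with an adjusted p of 0.00162 by limma. EV 2 stood apart from the other arrays, with a score of 74.0 on the first principal component (51.8% of the variance), against 21.1 for HOTAIR 3 and values below 0 for the other 5 arrays. Of 8 markers of renal epithelium, 7 were detected on all arrays and CDH6 on none. By their annotated positions, the probes of KRT8 (chr8) and KRT18 (chrY) in that list may not read those genes alone. The hepatocyte markers ALB, TTR, APOB, FGB and TF were detected on none, SERPINA1 on all, APOA1 on 2 EV and 2 HOTAIR arrays and AHSG on 1 HOTAIR array. Of the leukocyte markers CD14 was detected on all arrays and CD3E on none, and of 5 fibroblast markers 0 on any.

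The probe sequences below are those on which the reading of the UGT and CYP genes rests, because each shows what was or was not detected. Positions are on hg19, as the array annotation gives them. The probes for UGT2B7 (chr4:69978384-69978443, plus strand), UGT2B10 (chr4:69870639-69870698, minus strand) and UGT2B11 (chr4:70074103-70074162, minus strand) were detected on all 7 arrays.

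UGT2B7: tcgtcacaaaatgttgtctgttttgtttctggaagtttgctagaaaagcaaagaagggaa
UGT2B10: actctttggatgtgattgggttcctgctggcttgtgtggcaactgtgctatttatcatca
UGT2B11: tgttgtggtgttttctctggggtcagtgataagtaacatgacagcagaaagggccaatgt

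The array annotation also ties the UGT2B10 probe to a UGT2B11 transcript and the UGT2B11 probe to UGT2B28, so these readings cannot be given to 1 gene with certainty. The UGT2B10 probe is also annotated on the minus strand, whereas RefSeq places UGT2B10 on the plus strand. The probes for UGT1A6 (chr2:234676521-234676580, plus strand) and CYP24A1 (chr20:52773929-52773988, minus strand) were detected on none. The UGT1A6 probe is tied to transcripts of UGT1A1, UGT1A4, UGT1A6 and UGT1A8, which share their last exons, and therefore reports on several enzymes of that locus.

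UGT1A6: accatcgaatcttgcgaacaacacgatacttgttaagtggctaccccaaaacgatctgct
CYP24A1: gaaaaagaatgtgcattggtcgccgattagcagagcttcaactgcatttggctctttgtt

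The CYP2D6 probe carries a caution. It is tied to CYP2D7 as well and has no position in the annotation, and its reading on 1 array differed from all the others.

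CYP2D6: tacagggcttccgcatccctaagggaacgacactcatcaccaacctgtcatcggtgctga

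Most of the family was below detection on these arrays. Of the 68 genes, 21 had a probe detected on all 7 arrays, 9 on some arrays and 38 on none. The 21 genes were 30.9% of the family, against 45.1% of all gene names on the array, and the 38 genes were 55.9%, against 42.1%. Per array, between 25 and 28 of the 86 probes were detected. The 3 genes of the CYP1 family, which oxidise polycyclic hydrocarbons and are induced by the aryl hydrocarbon receptor, were all detected on every array. Among 16 genes of the CYP2 and CYP3 families that mainly handle drugs, CYP2B6, CYP2D6, CYP2S1, CYP2W1, CYP3A5 and CYP3A7 were detected on every array. Of these, CYP2B6, CYP2D6, CYP3A5 and CYP3A7 each had another probe that was detected on none. The CYP2A7 probe, which is also tied to CYP2A6, was detected on 1 array, and 9 genes on none, including CYP3A4 and CYP2E1. Among 14 genes for fatty acids and eicosanoids, CYP2J2, CYP2U1, CYP4F8 and CYP4V2 were detected on every array. The vitamin D genes CYP2R1 and CYP27A1, the sterol gene CYP51A1 and the orphan CYP20A1 were also detected throughout, whereas 0 of the 6 steroid hormone genes and 0 of the 4 retinoid genes were. For the UGT genes, the probes named for UGT2B7, UGT2B10, UGT2B11 and UGT8 were detected on all arrays.

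**Figure D1:**
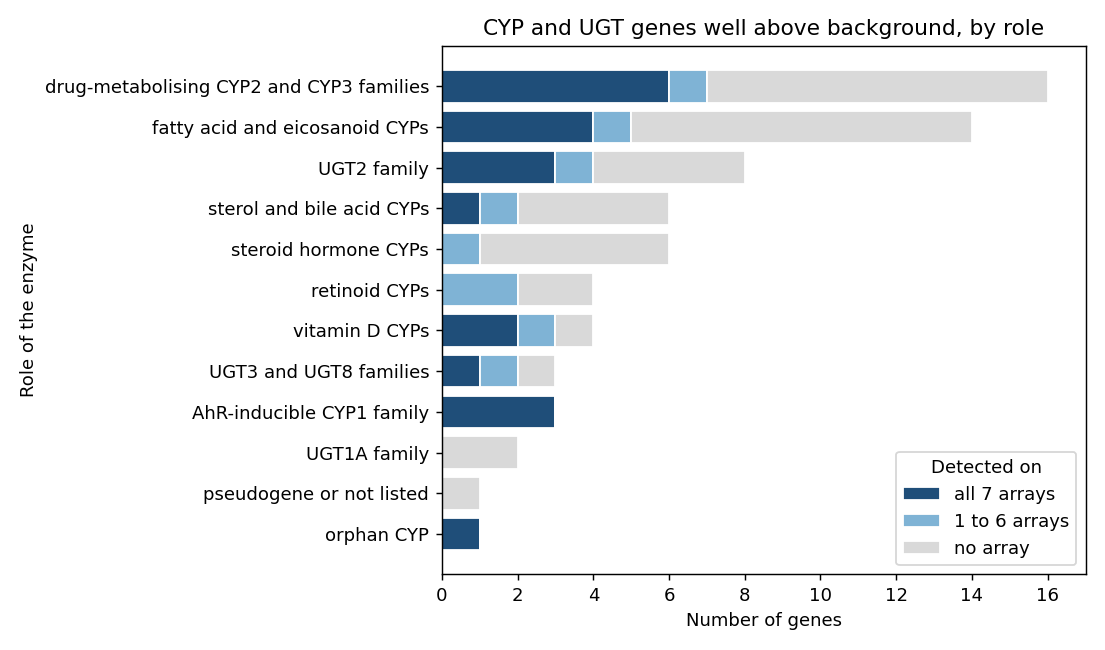
Number of CYP and UGT genes (horizontal axis) in each role group (vertical axis) whose best probe was detected (well above background) on all 7 arrays, on 1 to 6 arrays or on no array. The CYP1 family is dark along its whole bar, while the UGT1A bar and most of the steroid hormone bar are grey, and 38 of the 68 genes fall in the grey class.

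Of the 4 genes that mark this enzyme set, CYP1A1 and CYP1B1 were detected on all arrays, and CYP24A1, the mitochondrial enzyme that inactivates vitamin D, and UGT1A6, which conjugates planar phenols, were on none. The 2 probes of CYP24A1 lay between -7.74 and -6.36 on all 7 arrays. The 2 probes of UGT1A6 lay between -7.65 and -6.81. By detection alone, the CYP1 markers were therefore seen in these cells and the UGT1A marker was not, as far as the array shows. The signal of CYP1A1 was low, with a processed intensity from 38.2 to 71.9, against 523 to 649 at the 75th percentile of the arrays.

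HOTAIR and EV cells were then compared to ask which of these enzymes differed with the long non-coding RNA. A probe was tested if all 4 EV arrays or all 3 HOTAIR arrays detected it, which left 20419 probes, of which 25 were CYP or UGT probes of 22 genes (18 CYP and 4 UGT genes). None of the 25 passed the limma adjusted p of 0.05, where 34 of all tested probes did (0.167%, of which 0.132% higher and 0.0343% lower in HOTAIR). At an unadjusted p of 0.05 by limma the count was 3 of 25, against 5.85% of all probes. The groups did not overlap for 4 of the 25, with CYP27A1 and CYP2J2 higher and CYP4V2 and CYP20A1 lower in HOTAIR, where 7.7% of all tested probes did not overlap (4.2% higher and 3.5% lower). The median log2 difference was 0.014 over the 25 probes and 0.013 over all tested probes, with 13 probes above 0 and 12 below, and under the alternatives the median of the members took either sign, from -0.038 to 0.055. Without regard to sign the median difference was 0.094 against 0.126, and 18 of the 25 (72%) lay under 0.2, against 69.6% of all. The 95% interval of the difference lay within 1 on the log2 scale for 22 of the 25 probes and within 0.5 for 14, so that for these 14 a larger difference was outside the interval.

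**Figure D2:**
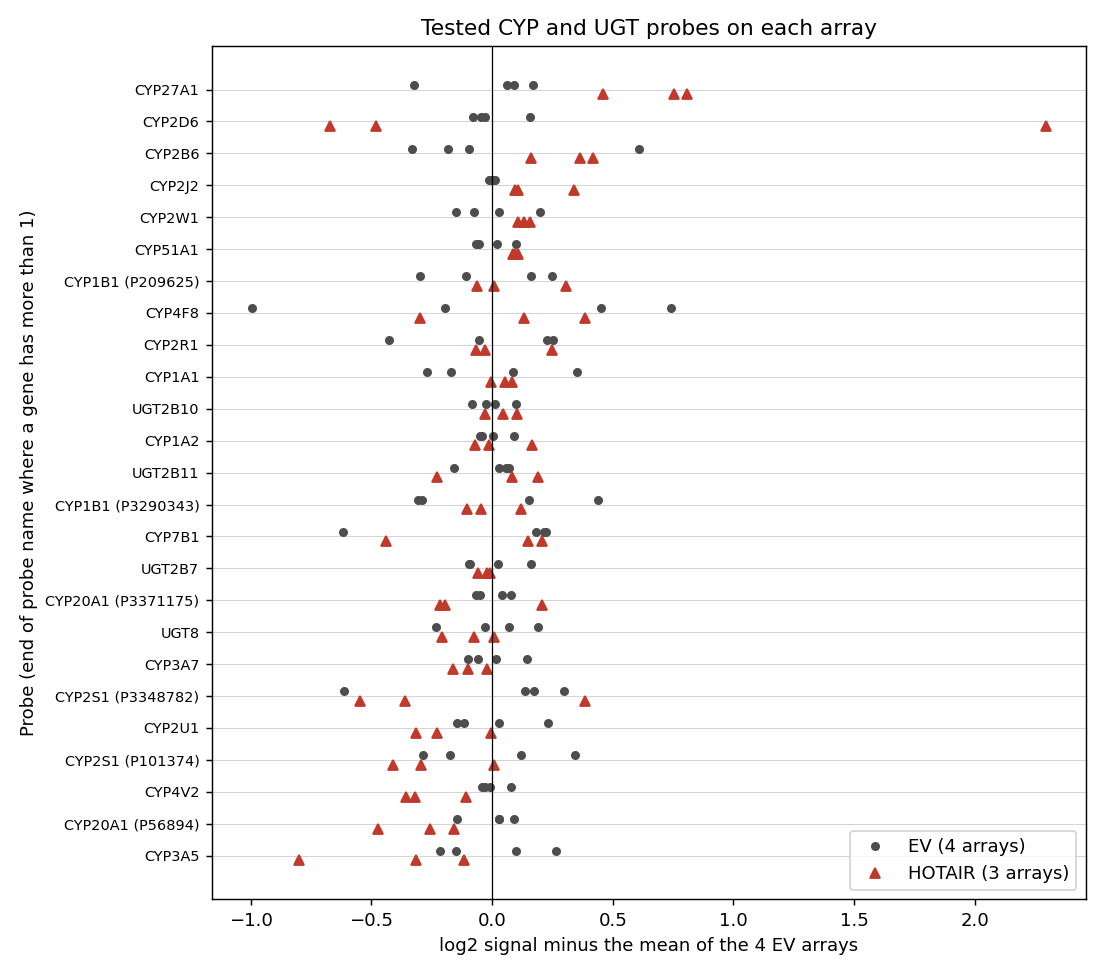
Level of each of the 25 tested CYP and UGT probes on each array, as log2 signal minus the mean of the 4 EV arrays (horizontal axis), with circles for EV and triangles for HOTAIR. The triangles of CYP27A1 lie to the right of all its circles, and the widest spread is that of CYP2D6, where HOTAIR 2 alone lies far to the right.

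CYP27A1 had the largest positive difference among the 25 tested probes, although CYP2D6 lay above it with array weights (1.24) and without HOTAIR 1 (0.81) or HOTAIR 3 (0.91). It is the mitochondrial sterol hydroxylase that oxidises cholesterol side chains for bile acid synthesis and can also hydroxylate vitamin D. Its probe (chr2:219679951-219680010, plus strand of hg19) read 0.66, 0.27, 0.69 and 0.77 on EV 1 to EV 4 and 1.40, 1.35 and 1.06 on HOTAIR 1 to HOTAIR 3. Every HOTAIR array was above every EV array, with EV 2 the lowest and HOTAIR 3 the lowest of its group. The log2 difference was 0.67 ± 0.16 (SE, n = 4 and 3, 95% interval 0.31 to 1.04), a 1.60-fold higher signal, with an adjusted p of 0.305 by limma and an exact two-sided permutation p of 0.0286, the smallest that 3 against 4 arrays can give. Array weights in limma, added after the data were seen, gave an adjusted p of 0.0144 and made it 1 of 324 probes called (1.59% of those tested), whereas under the other alternatives the adjusted p lay between 0.159 and 0.973.

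The other vitamin D genes gave few readings to set beside it. CYP2R1, the main vitamin D 25-hydroxylase, read 1.02, 0.71, 0.99 and 0.33 on the EV arrays and 0.73, 1.01 and 0.70 on the HOTAIR arrays, and the groups overlapped (0.05 ± 0.19, adjusted p = 0.993 by limma). CYP27B1, which makes the active hormone in the proximal tubule, was detected on 1 EV and 1 HOTAIR array and was not tested. With CYP24A1 below detection, no member of the pair that activates and inactivates the hormone could be compared. VDR, the receptor of the hormone, read from -0.31 to -0.04 in EV and from -0.30 to 0.03 in HOTAIR (0.08 ± 0.13, adjusted p = 0.993 by limma).

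None of the 3 CYP1 genes passed the test, and their groups overlapped. CYP1A1, the classic gene induced through the aryl hydrocarbon receptor, read -3.17, -3.80, -3.44 and -3.70 on the EV arrays and -3.48, -3.45 and -3.53 on the HOTAIR arrays. The HOTAIR arrays lay inside the EV range (0.04 ± 0.16, 95% interval -0.34 to 0.42, adjusted p = 0.993 by limma). CYP1A2, known mainly from liver for caffeine oxidation, ranged from -2.12 to -1.97 in EV and from -2.13 to -1.90 in HOTAIR (0.03 ± 0.11). CYP1B1, which hydroxylates oestradiol and is often found in tumours, has 2 probes 2262 bases apart. The first read 1.23, 1.78, 1.42 and 1.69 in EV and 1.47, 1.54 and 1.84 in HOTAIR (0.08 ± 0.17), and the second gave -0.01 ± 0.20. On both probes EV 2 was the highest EV array.

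Among the 25 tested probes, the drug-metabolising CYP2 and CYP3 genes held the widest spread, that of CYP2D6. CYP3A5, the CYP3A enzyme typical of kidney, read -4.47, -4.30, -4.78 and -4.72 on the EV arrays and -4.88, -4.68 and -5.36 on the HOTAIR arrays. The groups overlapped through HOTAIR 2, and the difference of -0.41 ± 0.20 had an adjusted p of 0.906 by limma. It was -0.092 with normexp and -0.22 without HOTAIR 3. CYP3A7, the fetal liver form, differed by -0.09 ± 0.11. CYP2B6, which oxidises bupropion and efavirenz, read -5.07, -4.14, -4.84 and -4.92 in EV and -4.32, -4.58 and -4.38 in HOTAIR. All HOTAIR arrays were above EV 1, EV 3 and EV 4 but below EV 2 (0.31 ± 0.23, adjusted p = 0.974 by limma). The difference was 0.050 with normexp and 0.52 without EV 2. The 2 probes of CYP2S1, an extrahepatic enzyme, differed by -0.23 ± 0.19 and -0.17 ± 0.29, and CYP2W1, found mainly in colon tumours, by 0.13 ± 0.12.

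For CYP2D6, which handles many antidepressants and opioids, 1 array set the mean. Its probe read -4.31, -4.28, -4.08 and -4.27 on the EV arrays and -4.72, -1.94 and -4.91 on the HOTAIR arrays. The reading of HOTAIR 2 came from a single spot and was the highest of the 7 arrays, while the other HOTAIR arrays were the lowest. The log2 difference was 0.38 ± 0.66 (95% interval -1.16 to 1.92, adjusted p = 0.993 by limma), and without HOTAIR 2 it was -0.58. The other CYP2D6 probe was detected on none.

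Among the enzymes of fatty acids and eicosanoids, 2 had groups that did not overlap. For such probes a low permutation p restates the separation and is not separate support. CYP2J2, the epoxygenase of arachidonic acid, has 10 spots on each array and read 0.10, 0.12, 0.11 and 0.09 on the EV arrays and 0.20, 0.21 and 0.45 on the HOTAIR arrays. HOTAIR 3 stood above the other 2 HOTAIR arrays (0.18 ± 0.11, adjusted p = 0.939 by limma, exact permutation p = 0.0286), and without it the difference was 0.10. CYP4V2, an omega-hydroxylase of fatty acids that is mutated in Bietti crystalline dystrophy, read -2.12, -2.11, -2.00 and -2.09 in EV and -2.43, -2.40 and -2.18 in HOTAIR. All 3 HOTAIR arrays were below all EV arrays (-0.26 ± 0.11, adjusted p = 0.825 by limma, exact permutation p = 0.0286). CYP2U1, a fatty acid hydroxylase, differed by -0.18 ± 0.14 and CYP4F8, a prostaglandin hydroxylase of seminal vesicle, by 0.07 ± 0.41, with EV arrays of CYP4F8 from -5.30 to -3.56.

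CYP20A1, whose substrate is not known, had groups that did not overlap on 1 of its 2 probes. That probe read -0.48, -0.42, -0.66 and -0.48 in EV and -0.77, -0.98 and -0.67 in HOTAIR, so that the groups were set apart by EV 3 and HOTAIR 3 lying next to each other (-0.30 ± 0.12, adjusted p = 0.816 by limma, exact permutation p = 0.0571). The second probe gave -0.07 ± 0.13 with overlapping groups. CYP51A1, the sterol demethylase of cholesterol synthesis, lay between 3.35 and 3.51 in EV and between 3.50 and 3.52 in HOTAIR (0.10 ± 0.10). CYP7B1, which hydroxylates oxysterols, was detected on 3 of the 4 EV arrays and on all HOTAIR arrays (-0.03 ± 0.26).

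**Figure D3:**
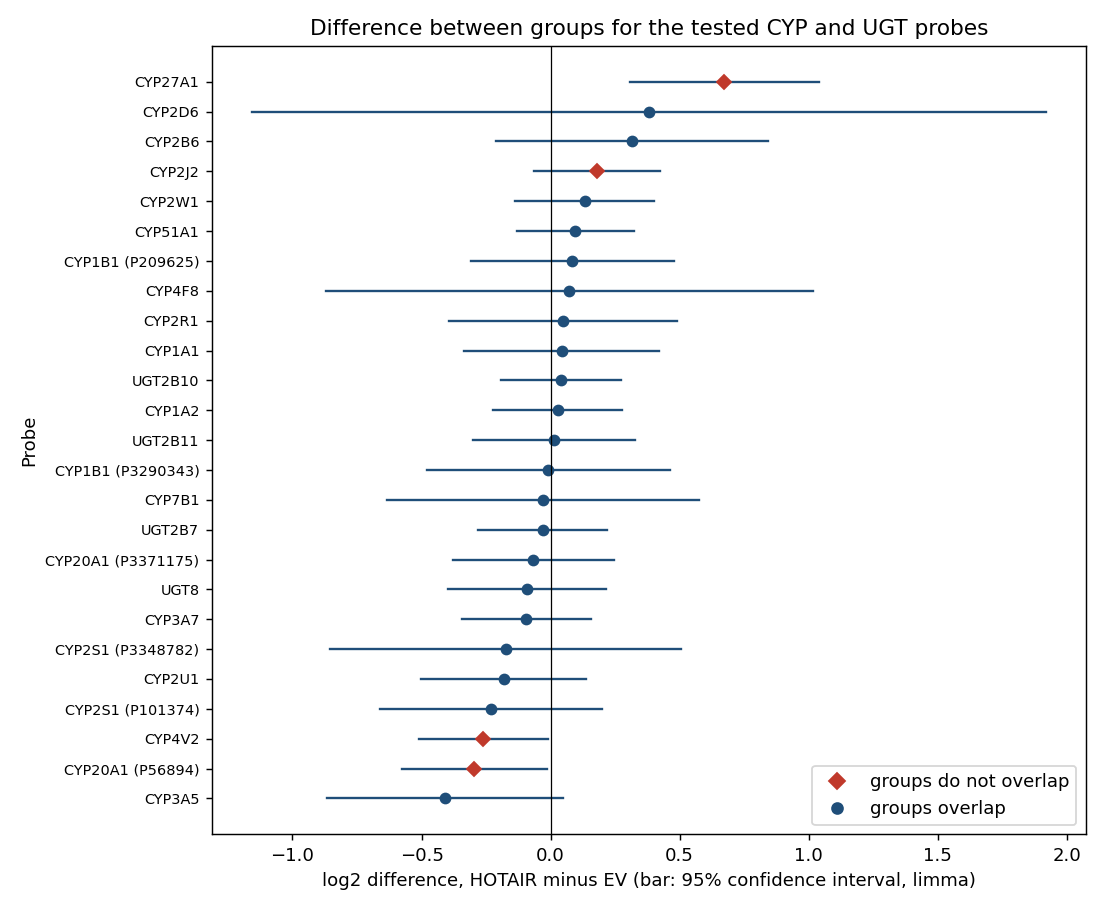
Difference between HOTAIR and EV for each of the 25 tested CYP and UGT probes (vertical axis), in log2 units with the 95% interval from limma (horizontal axis). Red diamonds mark the 4 probes whose groups do not overlap. The intervals of CYP27A1, CYP4V2 and 1 of the CYP20A1 probes leave out 0 before adjustment for multiple tests, and that of CYP2D6 is the widest.

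The 4 tested UGT genes differed by between -0.09 and 0.04, and all had overlapping groups. UGT2B7, the main enzyme for morphine and aldosterone glucuronides and abundant in kidney, read 3.06, 3.17, 3.05 and 3.31 on the EV arrays and 3.09, 3.14 and 3.12 on the HOTAIR arrays. The HOTAIR arrays lay inside the EV range (-0.03 ± 0.11, 95% interval -0.28 to 0.22). UGT2B10 is known for nicotine and tricyclic amine glucuronides. Its probe, also tied to UGT2B11, lay between 3.63 and 3.81 in EV and between 3.68 and 3.81 in HOTAIR (0.04 ± 0.10). The UGT2B11 probe, also tied to UGT2B28, lay between 0.68 and 0.90 in EV and between 0.60 and 1.03 in HOTAIR (0.01 ± 0.13). UGT8, which puts galactose rather than glucuronic acid on ceramide in myelin and kidney, differed by -0.09 ± 0.13. The adjusted p-values of these 4 genes lay between 0.993 and 0.996 by limma.

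The 1 UGT gene with a large gap lay at the edge of detection. UGT3A2, which uses UDP-glucose and UDP-xylose as donors and occurs in kidney, was detected on 2 HOTAIR arrays and 0 EV arrays and was not tested by limma. It read -5.62, -5.33, -6.85 and -6.36 in EV and -4.87, -4.71 and -4.41 in HOTAIR. All HOTAIR arrays were above all EV arrays, by 1.37 in the mean and with an exact permutation p of 0.0571, but the probe has 1 spot per array and the gap was 0.21 after normexp background correction. CYP11A1, UGT3A1 and CYP2C8 also had groups that did not overlap, but no array detected them. CYP17A1, of steroid hormone synthesis, and CYP26B1, which degrades retinoic acid, were detected on 3 EV arrays and 0 HOTAIR arrays and were not tested. Their groups overlapped, at -6.32 to -4.89 in EV and -6.41 to -5.26 in HOTAIR for CYP17A1, and at -5.97 to -5.06 and -5.97 to -5.47 for CYP26B1. A few readings belonged to single arrays. UGT2B4 read -3.90 on HOTAIR 1 and from -7.24 to -6.74 elsewhere. A CYP27C1 probe read -4.83 on EV 3 and from -7.66 to -6.68 elsewhere, but the other probe of that gene read -7.51 on EV 3 and was detected on none. For CYP2A7, only 1 of the 2 spots on HOTAIR 1 was bright, at -4.39 against -7.06.

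**Figure D4:**
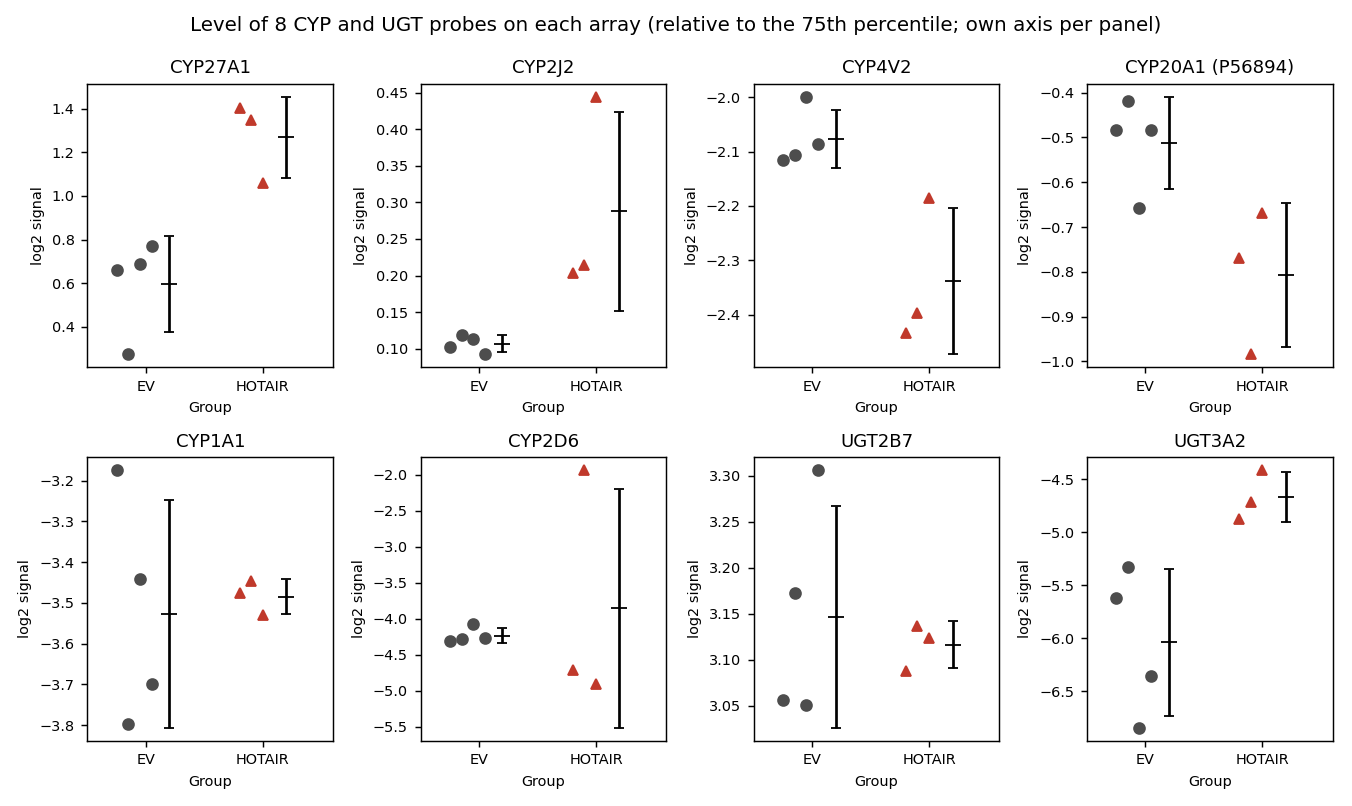
Log2 signal relative to the 75th percentile of the array for 8 CYP and UGT probes (vertical axes, each panel on its own scale), by group (horizontal axis), with 4 EV arrays as circles, 3 HOTAIR arrays as triangles, and the mean ± SD beside them. The groups are set apart for CYP27A1, CYP2J2, CYP4V2, CYP20A1 and UGT3A2, the HOTAIR arrays of CYP1A1 and UGT2B7 lie inside the EV range, and in CYP2D6 only HOTAIR 2 is high.

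The genes that serve these enzymes were examined from 5 lists, of which 50 genes were tested and 0 passed the adjusted p of limma, with 3 at an unadjusted p of 0.05. The groups did not overlap for 6 of the 50 (12%), against the 7.7% of all tested probes. POR, the reductase that passes electrons to the CYP enzymes of the endoplasmic reticulum, read 1.11, 0.14, 0.77 and 0.85 in EV and 1.35, 1.14 and 0.83 in HOTAIR, with overlap through HOTAIR 3 (0.39 ± 0.24, adjusted p = 0.949 by limma, and a difference of 0.19 without EV 2). All 12 electron and haem partners were tested, with a median difference of 0.03. FDX1 and FDXR, the chain that serves CYP27A1 in mitochondria, differed by -0.12 ± 0.10 and -0.02 ± 0.16. HMOX1, which degrades haem and was named after its values were seen, read 3.45, 3.57, 3.61 and 3.91 in EV and 4.54, 4.50 and 4.34 in HOTAIR. The groups did not overlap (0.82 ± 0.14, adjusted p = 0.113 by limma).

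Of the 14 genes of the aryl hydrocarbon receptor pathway, 10 were tested and had a median difference of 0.10. AHR, the receptor, read 1.39, 1.57, 1.24 and 1.00 in EV and 0.80, 0.98 and 1.14 in HOTAIR, with overlap through EV 4 and HOTAIR 3 (-0.33 ± 0.16, adjusted p = 0.917 by limma). Its partner ARNT differed by 0.05 ± 0.14, and its targets TIPARP and NQO1 by -0.01 ± 0.10 and 0.17 ± 0.16. AHRR, the repressor of the pathway, was detected on none. Of 20 nuclear receptors that govern drug, sterol and vitamin D enzymes, 9 were tested, with a median of 0.05. The other 11, among them the drug sensors NR1I2 and NR1I3 and the liver factor HNF4A, were detected on none. RXRA, the shared partner of these receptors, differed by -0.01 ± 0.14.

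Glucuronidation also needs its sugar donor. UGDH and UGP2, which make UDP-glucuronic acid and its precursor, differed by 0.12 ± 0.14 and 0.03 ± 0.10. SLC35D1, which carries UDP-glucuronic acid into the endoplasmic reticulum, read -4.05, -3.85, -3.67 and -3.66 in EV and -3.45, -3.23 and -3.33 in HOTAIR. The groups did not overlap (0.47 ± 0.13, adjusted p = 0.503 by limma). KL, the kidney protein klotho, whose domains resemble glycosidases and which lowers CYP27B1 in the kidney, read -2.86, -3.02, -3.05 and -3.20 in EV and -3.98, -3.81 and -3.83 in HOTAIR. Every HOTAIR array was below every EV array (-0.84 ± 0.12, adjusted p = 0.0678 by limma). SLC35D1 and KL were named after their values were seen. With array weights, which called 1.59% of all tested probes, the limma adjusted p was 0.00557 for KL and 0.00518 for HMOX1. With normexp the difference of KL was -0.37 (adjusted p = 0.359 by limma) and that of SLC35D1 0.13 (0.949). Among 24 other drug-metabolising enzymes on the array, 11 were tested, with a median of 0.13, and 12 were detected on none.

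**Figure D5:**
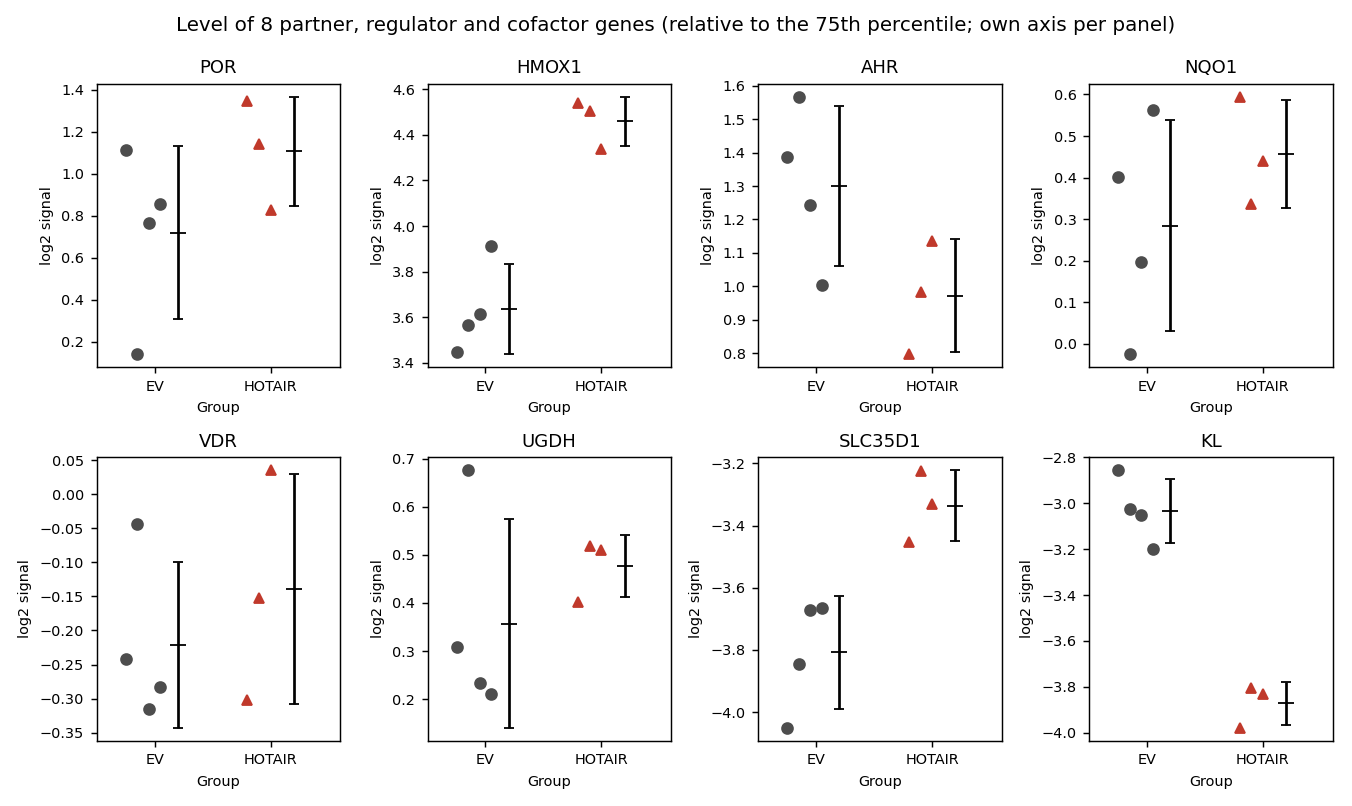
Log2 signal relative to the 75th percentile of the array for 8 partner, regulator and cofactor genes (vertical axes, each panel on its own scale), by group (horizontal axis), with 4 EV arrays as circles, 3 HOTAIR arrays as triangles, and the mean ± SD beside them. The groups are set apart for HMOX1, SLC35D1 and KL and overlap for POR, AHR, NQO1, VDR and UGDH.

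The promoters of detected and undetected members were described by the letters they hold. The RefSeq promoter table (GRCh38.p14) held 50 of the 68 genes, and the 250 bases before the start of each were searched on both strands for CG, for GCGTG (the core of the site bound by the aryl hydrocarbon receptor) and for TATAAA. The median number of CG pairs was 19 for the 15 CYP genes detected on all arrays, 1.5 for the 4 UGT genes whose probes were and 2 for the 25 members on no array, against 11 over all 27305 promoters. TATAAA occurred in 17 of the 50 promoters (34%) and in 11.1% of all, and GCGTG in 12 (24%) and in 31.9% of all. These are counts of letters and not sites. CYP1A1 is shown for its GCGTG and TATAAA, CYP27A1 as a detected gene with 24 CG pairs and neither of the other motifs, and UGT2B7 as a detected gene with 0 CG pairs and neither motif. The windows are chr15:74725529-74725778 (minus strand), chr2:218781897-218782146 (plus strand) and chr4:69096224-69096473 (plus strand), with GCGTG and TATAAA in capitals.

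CYP1A1: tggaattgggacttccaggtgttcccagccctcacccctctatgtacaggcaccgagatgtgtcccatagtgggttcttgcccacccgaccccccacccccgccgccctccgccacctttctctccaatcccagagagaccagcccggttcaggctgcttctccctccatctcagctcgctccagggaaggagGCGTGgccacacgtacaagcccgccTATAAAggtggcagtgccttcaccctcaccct
CYP27A1: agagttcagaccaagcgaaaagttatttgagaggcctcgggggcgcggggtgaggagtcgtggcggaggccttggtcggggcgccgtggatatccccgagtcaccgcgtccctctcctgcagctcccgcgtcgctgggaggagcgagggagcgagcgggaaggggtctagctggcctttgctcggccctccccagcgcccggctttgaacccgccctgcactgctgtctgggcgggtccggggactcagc
UGT2B7: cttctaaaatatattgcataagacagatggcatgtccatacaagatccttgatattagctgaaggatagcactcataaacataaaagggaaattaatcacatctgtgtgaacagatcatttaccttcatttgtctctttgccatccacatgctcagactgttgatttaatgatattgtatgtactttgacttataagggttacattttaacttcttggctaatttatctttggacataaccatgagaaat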

How the data were processed

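The authors scanned 7 one-colour arrays and deposited, per the file headers, the output of Agilent Feature Extraction 10.7.3.1 (hg19 annotation), with a processed intensity per spot (background subtracted and detrended, not scaled between arrays) and its background, saturation and outlier calls. They also deposited a table of the same intensity for 62969 of 62976 spots, within 0.498% of the scanner values. Groups came from the sample titles. Each array's 75th percentile over 58717 non-control spots was subtracted from its log2 processed intensities, outlier spots (408 to 600 per array) were left out and spots of a probe were averaged. A probe counted as well above background on an array if at least a share of 0.5 of its spots were called so. Probes detected on all arrays of either group were tested with limma 3.58.1 (lmFit and eBayes) in R 4.3.3, with Benjamini-Hochberg adjustment over all 20419 and a limit of 0.05. The script was tested on simulated data. Single genes were also tested by exact two-sided permutation over the 35 splits of the arrays. That p is printed only for probes whose groups did not overlap, where it restates the separation. For list genes the brightest tested probe stands for the gene. The number of arrays limits the precision.

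The members and gene lists were chosen with earlier results of these data known. Named are the 4 marker genes, the 8 tested members highest and the 8 lowest by log2 difference, members whose groups did not overlap or that were detected on every array, and POR, AHR, ARNT, AHRR, TIPARP, NQO1, VDR, RXRA, UGDH and UGP2. As alternatives, background correction by normexp (offset 50), quantile normalization, scaling over detected probes (by their median or 75th percentile), no filter or a filter on all 7 arrays, the unscaled table, each array left out, a replicate block, limma's trend and robust options, the Mann-Whitney U test, the rank product (12 comparisons, 100 permutations), and, chosen after seeing the data, array weights and leaving out EV 2 with HOTAIR 3 were run. RefSeq tables (GRCh38.p14) gave promoters and current names, which matched for all 86 probes. Some items are not reported here.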

Additional observations from a re-analysis of the deposited data

Results flagged for a closer look

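In the EV group, CYP7B1 on EV 2 (-5.70) lay far below the other EV arrays (-4.90 to -4.86), with a gap of 0.952 of the group's range. It was 1 of 36 genes examined in this way, of which chance marks about 1 in 20, and EV 2 is the array that stood apart on the first principal component. Outside the tested probes, 4 members were well above background on HOTAIR arrays and on 0 EV arrays. They were UGT3A2 on 2 arrays (group median -4.71), UGT2B4 on HOTAIR 1 (-3.90), CYP4F11 on HOTAIR 2 (-4.78) and CYP2A7 on HOTAIR 1 (-5.73). In the other direction, CYP17A1 and CYP26B1 were detected on 3 EV arrays, and a CYP27C1 probe on 1, with 0 HOTAIR arrays for each. The other probes of CYP4F11 and CYP27C1 were detected on none.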

How the results depend on the processing

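The only CYP or UGT probe past the limit in any alternative was CYP27A1, with array weights, which were added after the data were seen and left 1 member called. Over all tested probes the number called, 34 by limma, was 12 with normexp, 14 with no filter, 22 with the filter on all 7 arrays, 20 with trend and robust moderation, 0 with the replicate block (1073 at an unadjusted p of 0.05), 0 by the Mann-Whitney U test (0 at an unadjusted p of 0.05, since its smallest p is 0.0571), 85 by the rank product and 324 with array weights, and it lay between 9 (without EV 1) and 30 (without EV 2) when 1 array was left out. CYP and UGT probes whose groups did not overlap numbered 4 (7.7% of all probes), and 1 in the unscaled table (CYP27A1, 5.01% of all), 8 with no filter (5.74%), 11 without EV 2 and HOTAIR 3 (28.4%), and from 4 to 7 with 1 array left out (7 without HOTAIR 2 or HOTAIR 3, where 12% and 21.2% of all probes did not overlap). Such probes numbered 5 with normexp (7.84% of all) and with the 75th percentile over detected probes (7.73%), with CYP51A1 added in both. Quantile normalization also gave 4 (7.96%), but with CYP3A7 in place of CYP20A1. The median difference of the tested members, 0.014, moved by less than the spread between arrays (0.16) under every alternative and lay between -0.038 and 0.055. The deviations of same-numbered arrays from their group means had correlations of both signs (0.39, -0.37 and -0.41). The largest correlation was that of EV 2 with HOTAIR 3 (0.62), the 2 arrays highest on the first principal component. These values cannot tell whether the numbers pair the samples. With the replicate block the adjusted p by limma was 0.0772 for HOTAIR, 0.699 for CYP27A1, 0.485 for KL and 0.472 for HMOX1.

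None of the genes whose difference changed sign had passed the limit, and their values follow on the log2 scale. Each gene stands here by its tested probe with the highest mean. For CYP20A1 that is the probe whose groups overlapped, not the one whose groups were apart. These were ARNT (-0.011), CYP1A1 (-0.030), TIPARP (0.0080), UGT2B10 (-0.098), UGT2B11 (-0.052) and UGT2B7 (0.023) with normexp, ARNT (-0.038), CYP1A1 (-0.057), CYP1A2 (-0.014), CYP4F8 (-0.034), RXRA (0.0094) and TIPARP (0.017) with quantile normalization, and RXRA (0.014) and TIPARP (0.012) with the 75th percentile over detected probes. In the unscaled table they were CYP7B1 (0.016), RXRA (0.035), TIPARP (0.033) and UGT2B7 (0.013), and with the replicate block CYP1A1 (-0.014), CYP2R1 (-0.093), CYP7B1 (0.047), RXRA (0.041) and UGT2B7 (0.023). Array weights turned ARNT (-0.022), CYP1A1 (-0.037), CYP1A2 (-0.0061), CYP2R1 (-0.0055), CYP4F8 (-0.42), RXRA (0.028) and UGT2B7 (0.040), and leaving out EV 2 and HOTAIR 3 turned CYP1A1 (-0.023), CYP1A2 (-0.012) and CYP4F8 (-0.41). With 1 array left out, the ranges that crossed 0 were those of ARNT (-0.048 to 0.10), CYP1A1 (-0.047 to 0.16), CYP1A2 (-0.042 to 0.077), CYP1B1 (-0.027 to 0.17), CYP20A1 (-0.20 to 0.0061), CYP2D6 (-0.58 to 0.91), CYP2R1 (-0.093 to 0.13), CYP4F8 (-0.26 to 0.32), CYP7B1 (-0.23 to 0.18), RXRA (-0.092 to 0.062), TIPARP (-0.039 to 0.028), UGP2 (-0.023 to 0.064), UGT2B11 (-0.075 to 0.14), UGT2B7 (-0.062 to 0.023) and VDR (-0.0056 to 0.16). Without a change of sign, normexp moved CYP4V2 to -0.17, CYP2S1 to -0.11, CYP2U1 to -0.089 and UGDH to 0.25. The cause was not tested. The number of arrays and, for probes near background such as UGT3A2, the signal limit what can be read.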
